A study of Mus musculus with 5 samples.

Results

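The HSP40 (DnaJ) chaperone genes Dnaja1, Dnajb1, Dnajb2, Dnajb4 and Dnajb6, were examined for binding of HSF1, the main transcription factor of the heat shock response. Peaks were chosen by position: a peak belonged to a gene when its summit lay inside the gene or within 10000 bp of it on GRCm38. By this rule 5 of the 6962 deposited peaks belonged to the 5 genes, 1 of 3316 in the control list and 4 of 3646 in the NMDA list. HSF1 chromatin immunoprecipitation and sequencing (ChIP-seq) was done on wild-type primary cortical neurons, from embryos of Swiss-Webster mice at embryonic day 16, kept in culture to day 13. The control group (2 libraries) received no treatment. The NMDA group (2 libraries) received 50 µM NMDA, an agonist of a class of glutamate receptors, for 10 min, and then 20 min without the drug. A single input library, sheared chromatin without immunoprecipitation, came from untreated neurons and served both conditions. The labels describe both ChIP samples of each group as biological replicates. The labelled cell type could not be checked against marker genes, because binding peaks do not measure expression.

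HSP40 proteins carry a J domain, which stimulates ATP hydrolysis by HSP70 chaperones and so fixes a client protein on HSP70. Class A members such as DNAJA1 resemble bacterial DnaJ over their whole length, and class B members such as DNAJB1 share its J domain and a region rich in glycine and phenylalanine. HSF1 binds heat shock elements, in which the letters GAA and their reverse complement TTC alternate with a pair of free bases between them. In neurons, HSP40 proteins are studied mainly because they keep aggregation-prone proteins soluble.

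The NMDA list held a peak upstream of Dnaja1, one inside Dnajb1 and one at an internal start of Dnajb4, and the control list held one inside Dnajb1. In the NMDA list 3 of the 5 genes had a peak (60%, 95% exact Clopper-Pearson interval 14.7 to 94.7%), against 9.41% of the 21631 protein-coding genes. In the control list 1 of the 5 had one (20%, 0.505 to 71.6%), against 10.3% of protein-coding genes. With 5 genes the intervals are wide. They treat the genes as random draws, which a chosen list is not, so they are no test against the share of all genes. The same holds for the intervals of the other gene lists below. The control and NMDA lists were not tested against each other. Dnajb2 and Dnajb6 had no peak in either list. The fold enrichment of the Dnaja1 peak, 6.63, was above 4, which was true for no other peak of the 5 genes. A peak of at least 4-fold lay in or within 10000 bp of 0.578% of protein-coding genes in the NMDA list. In the control list this held for 0.0462% of protein-coding genes and for 0 of the 5.

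The sequences before 3 of the annotated starts are shown because each holds a heat shock element and the peaks lie differently to it: over it at Dnaja1, beside it at Dnajb4, and with no peak listed at Dnajb6. The sequences are from RefSeq (GRCm38.p6), where all 5 genes had an entry. Each runs 5′ to 3′ along the gene and covers the 250 bases before the start. They lie at chr4:40722218-40722467 (Dnaja1, + strand), chr3:152193846-152194095 (Dnajb4, - strand, before the second of its annotated starts) and chr5:29735648-29735897 (Dnajb6, + strand). Capitals mark every match to GAANNTTC or TTCNNGAA, 2 alternating units.
Dnaja1: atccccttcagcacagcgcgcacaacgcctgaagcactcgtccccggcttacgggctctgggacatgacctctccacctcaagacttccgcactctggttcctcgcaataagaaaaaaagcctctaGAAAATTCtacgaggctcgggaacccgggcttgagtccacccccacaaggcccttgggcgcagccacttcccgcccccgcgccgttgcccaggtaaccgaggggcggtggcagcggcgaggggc
Dnajb4: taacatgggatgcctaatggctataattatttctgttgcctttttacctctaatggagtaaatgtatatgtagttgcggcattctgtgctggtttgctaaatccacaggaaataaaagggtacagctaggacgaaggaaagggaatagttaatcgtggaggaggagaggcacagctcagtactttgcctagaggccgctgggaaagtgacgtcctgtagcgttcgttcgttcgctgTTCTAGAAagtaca
Dnajb6: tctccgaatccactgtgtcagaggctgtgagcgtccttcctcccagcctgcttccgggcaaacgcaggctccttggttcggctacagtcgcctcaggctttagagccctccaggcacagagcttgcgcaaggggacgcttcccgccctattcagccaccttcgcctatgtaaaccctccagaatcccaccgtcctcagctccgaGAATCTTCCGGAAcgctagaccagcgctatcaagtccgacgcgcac
Set beside each other with their flanks, the elements of Dnaja1 and Dnajb4 have 2 exact units, and that of Dnajb6 has 3.
Dnaja1 element: agcctctaGAAAATTCtacgaggc
Dnajb4 element: gttcgctgTTCTAGAAagtaca
Dnajb6 element: agctccgaGAATCTTCCGGAAcgctagac

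Dnaja1 (chromosome 4, 40722468 to 40734965, + strand) encodes a cytosolic class A HSP40 and carried the strongest of these sites. Its peak in the NMDA list ran from 40721712 to 40722467, a width of 756 bp where the median of that list was 303 bp. The authors' fold enrichment of 6.63 was the 49th highest of the 3646 values, with a −log10 q of 34.8. The summit, at 40722248, lay 220 bp before the first annotated start, and the peak ended at the base before that start. The 2-unit element GAAAATTC was inside this peak, 124 bases before the start and 96 bp from the summit. The promoter windows covered 33.1% of the peak, and its other letters were not searched. A weaker NMDA peak stood next to it, from 40721049 to 40721532, with a fold of 2.59 and a −log10 q of 1.56. Its summit was 1026 bp before the Dnaja1 start. It lay inside Aptx, a DNA repair gene on the - strand, 225 bp from the 5′ boundary of that gene. The summit of the strong peak was outside Aptx, 581 bp from the same boundary. The nearest Aptx start with a promoter entry was 18248 bp from the weaker summit and 19054 bp from the strong one. Dnaja1 was the 1 gene of the 5 with 2 NMDA peaks, against 1.51% of protein-coding genes with 2 or more. Both summits also lay inside Gm6297, a long noncoding RNA gene on the opposite strand, and the summit of the strong peak was 69 bp from an annotated start of it at 40722317. The peaks have no strand, so they cannot be assigned to one of these genes rather than another. The nearest control summit was 1002934 bp away from Dnaja1.

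Dnajb1 (chromosome 8, 83608175 to 83612653, + strand) encodes a heat-inducible class B HSP40, and it was the gene with a peak in both lists. The control peak, from 83608221 to 83608746, had a fold of 2.88 and a −log10 q of 2.19. The NMDA peak, from 83608666 to 83608977, had a fold of 2.69 and a −log10 q of 1.69. These are common values: 188 control peaks had that same control fold and 298 NMDA peaks that same NMDA fold, and 72.4% and 42.5% of the peaks of the respective list were lower. The lists are scaled separately, so the values are given side by side and not as a change. Both summits lay downstream of the first start, by 423 bp in the control list and 636 bp in the NMDA list. From the second annotated start, at 83608548, the distances were 50 and 263 bp. The peaks shared 81 bp, which is 15.4% of the control peak and 25.96% of the NMDA peak, and their summits were 213 bp apart. Dnajb1 therefore counted as a shared site by an overlap of 1 bp. It did not when the overlap had to reach 50% of the shorter peak, or when the summits had to lie within 200 bp (0 shared sites in each case). A peak in each list was found for 2.72% of protein-coding genes under the rule of 10000 bp.

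No 2-unit element was found in either Dnajb1 promoter window. These RefSeq windows hold the 250 bases before and the 50 bases from a start, and they covered 57.8% of the control peak and no base of the NMDA peak. The letters under the rest of the Dnajb1 peaks were not searched.

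Dnajb4 (chromosome 3, 152181580 to 152210432, - strand) encodes a class B HSP40 closely related to DNAJB1. Its 1 NMDA peak, from 152193895 to 152194348, had a fold of 2.72 and a −log10 q of 2.03, both close to the medians of that list (2.69 and 2.03). The summit, at 152194117, lay inside the gene and 15966 bp downstream of the first annotated start, and 12537 bp from the nearer gene end. Measured from the second annotated start, at 152193845, it was 272 bp upstream. The element TTCTAGAA stood 14 bases before that start. It was 258 bp from the summit and outside the peak, whose nearer edge was 36 bp away. The promoter window covered 44.3% of this peak and not its summit, so the letters under the rest of it were not searched. The nearest control summit lay 185291 bp from the gene.

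**Figure D1:**
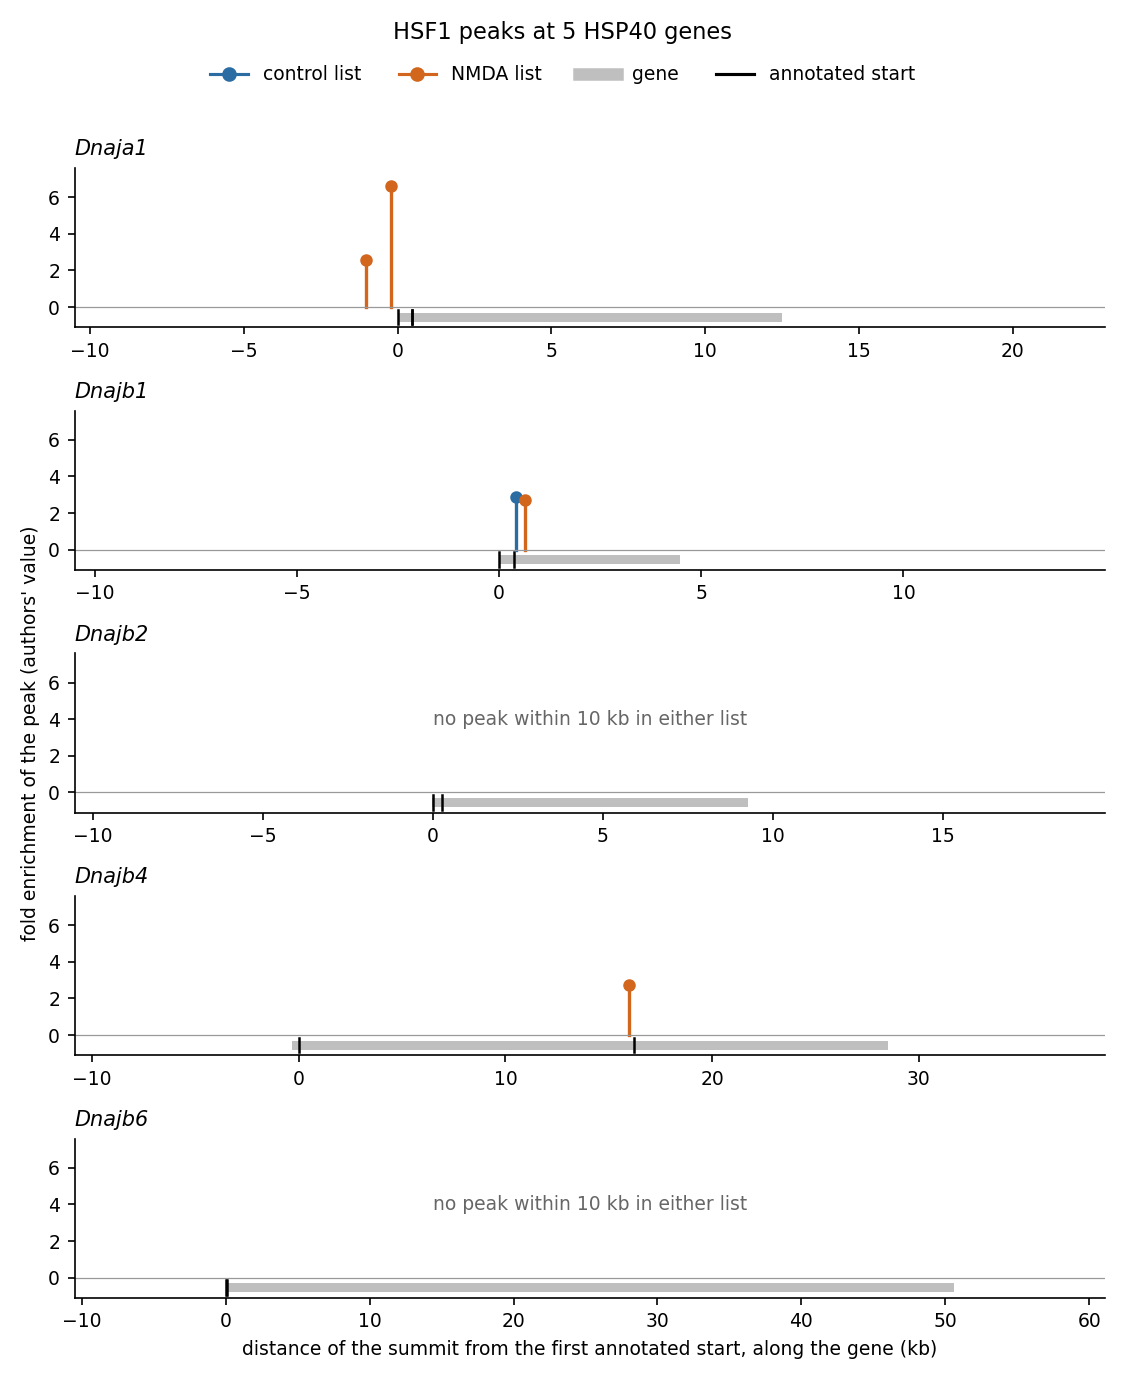
Peaks at the 5 genes. The x axis is the distance of the summit from the first annotated start along the gene (kb) and the y axis the authors' fold enrichment; grey bars are genes, black ticks annotated starts, blue and orange stems the control and NMDA peaks. The highest stem, at 6.63, is the NMDA peak 220 bp before the Dnaja1 start, and the Dnajb4 stem stands next to the second start of that gene.

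Distances to annotated starts gave the same genes. A summit within 1000 bp of a start was found for 3 of the 5 genes in the NMDA list, against 1.99% of the 17274 protein-coding genes with a promoter entry. In the control list it was found for 1 of the 5, against 2.82%. Dnajb4 counted through its second start only, and this setting was chosen after seeing the data. The 5 genes have 11 promoter windows, where 26794 genes have 32619, so they had more starts per gene to match. By gene ends in place of starts, Dnajb4 dropped out, and 2 of the 5 genes had an NMDA peak, against 1.93% of protein-coding genes. In the control list 1 of the 5 had one at a gene end, against 2.55%. The 5 genes are from 4479 to 50581 bp long, and among the 12272 protein-coding genes of that range 6.09% had an NMDA peak and 7.28% a control peak within 10000 bp.

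Dnajb6 (chromosome 5, 29735898 to 29786478, + strand) encodes a class B HSP40 known for suppressing the aggregation of polyglutamine proteins. It had the most complete heat shock element found in the promoter windows of the 5 genes, and no peak. Letters outside these windows, including parts of the peaks at the other genes, were not searched. The element GAATCTTCCGGAA, 3 exact units in a row, began 46 bases before the first start. Either form of this element (GAANNTTCNNGAA or TTCNNGAANNTTC, which together cover both strands) was present in 0.607% of 32619 promoter windows. The nearest summit was 457573 bp from the gene in the NMDA list and 867926 bp in the control list. Of the 104 protein-coding genes with a 3-unit element in a promoter window, 13 (12.5%) had an NMDA summit within 1000 bp of a start and 91 did not. Among genes without one, 1.92% had such a summit. The corresponding shares with a control summit were 6.73% (7 of 104) and 2.80%. Whether reads can be placed uniquely at Dnajb6 was not examined, and the lack of a listed peak leaves HSF1 binding there undecided.

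Dnajb2 (chromosome 1, 75236395 to 75245692, + strand) encodes a class B HSP40 that is abundant in neurons and binds ubiquitin. It had neither a peak nor a 2-unit element in its promoter windows. Its nearest summits were 93763 bp away in the control list and 428387 bp away in the NMDA list. No peak of either list lay between 10000 and 20000 bp from any of the 5 genes, so none was near the edge of the rule.

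**Figure D2:**
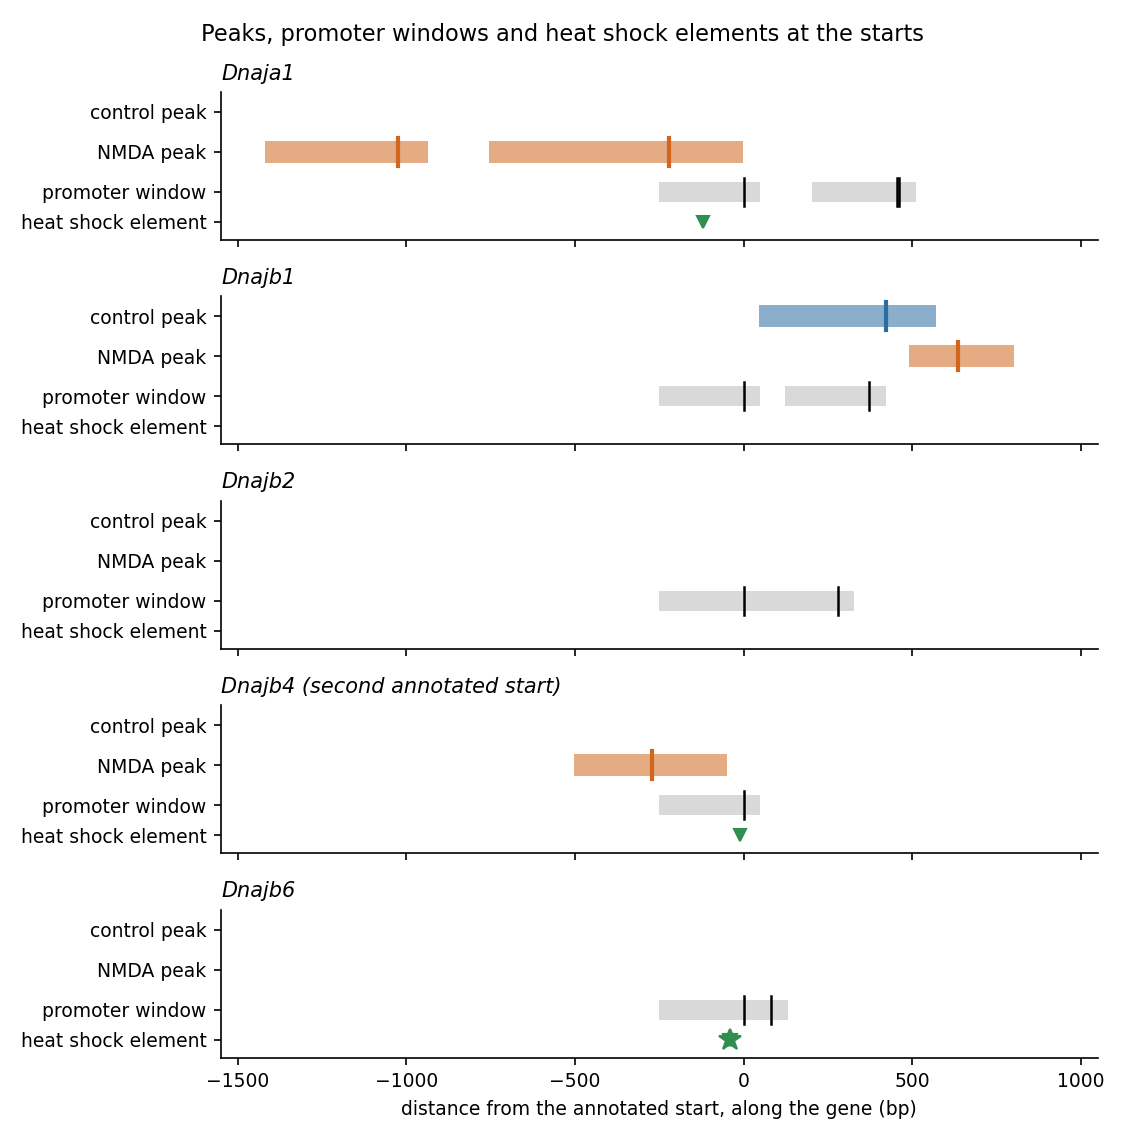
Peaks and heat shock elements around the starts. The x axis is the distance from the annotated start along the gene (bp); blue and orange boxes are control and NMDA peaks with the summit as a line, grey boxes promoter windows with the start as a black line, green triangles 2-unit elements and the star the 3-unit element. At Dnaja1 the element is inside the peak, 96 bp from the summit; at Dnajb4 it is 36 bp outside it, and Dnajb6 has an element and no peak.

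Across the family, 3 of the 5 genes held a 2-unit element, against 17.1% of the 26794 genes with a promoter window. By windows it was 4 of 11, against 15.1% of all windows. The 2 Dnajb6 windows overlap and hold the same element, so it is counted in both. The 5 genes have 11 windows, where the 26794 genes have 32619, so the 5 had more windows per gene to hold a match. The 3-unit element was in Dnajb6 alone among the 5, against 0.668% of genes. With 1 of its 9 fixed letters free to differ, it was in Dnaja1, Dnajb4 and Dnajb6, against 8.20% of genes. A match describes the letters and not a bound site. Of the 489 windows with an NMDA summit within 1000 bp of the start, 15.7% held a 2-unit element and 3.48% a 3-unit one, where all windows gave 15.1% and 0.607%. Of the 668 windows with a control summit at that distance, 9.73% held a 2-unit element and 1.35% a 3-unit one.

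Within their lists the peaks of the HSP40 genes were ordinary in size apart from Dnaja1. By its strongest peak within 10000 bp, Dnaja1 was 36th of the 2035 protein-coding genes with an NMDA peak, where the median gene had a fold of 2.80. Dnajb4 was 1069th and Dnajb1 1096th. In the control list Dnajb1 was 608th of 2221 genes, where the median gene had 2.67. All 5 peaks had an authors' q below 0.05. So did 68.9% of all peaks in the control list and 76.3% of those in the NMDA list. At or above the median −log10 q of its list stood the strong Dnaja1 peak, the Dnajb4 peak and the control peak of Dnajb1, and below it the NMDA peak of Dnajb1 and the second peak of Dnaja1.

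**Figure D3:**
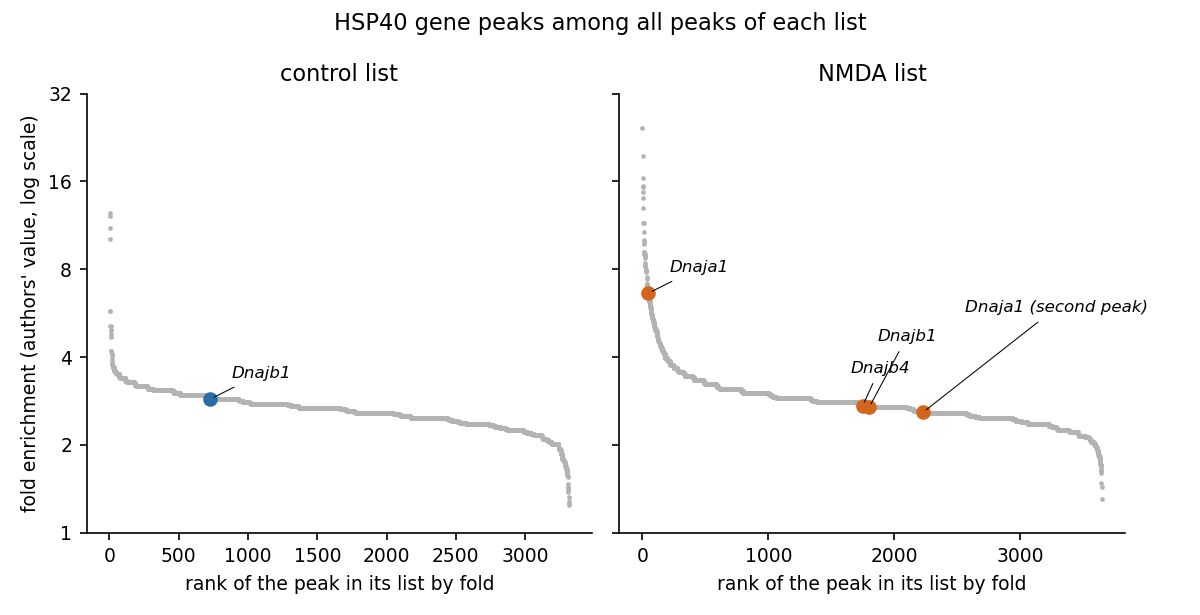
Fold enrichment of all peaks of each list in grey by rank (x axis), on a log scale (y axis, authors' value), with the peaks of the HSP40 genes in colour. The strong Dnaja1 peak is 49th in the NMDA list, while the Dnajb4 and Dnajb1 peaks, at 2.72 and 2.69, lie in its flat middle part.

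The other J-domain genes, a list of 43 protein-coding genes, were read in the same way. They were the genes of the Dnaja, Dnajb and Dnajc series outside the 5 together with Hscb, Sec63 and Gak. A peak within 10000 bp was found for 7 of them in the NMDA list (16.3%, 6.81 to 30.7%) and for 4 in the control list (9.30%, 2.59 to 22.1%), beside 9.41% and 10.3% of all protein-coding genes. The authors' q of the Dnajc2 peak in the NMDA list (−log10 q 0.928) was not below 0.05. None of the 43 had a summit within 1000 bp of a gene end, which is close to the 2.55% (control list) and 1.93% (NMDA list) of all protein-coding genes. Of the 34 with a promoter entry, 4 held a 2-unit element and none a 3-unit one. Of all genes with a promoter window, 17.1% and 0.668% held them.

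HSP70 proteins, their nucleotide exchange factors and cochaperones, the direct partners of HSP40, formed a list of 24 genes. In the NMDA list 6 of them had a peak (25%, 9.77 to 46.7%), against 9.41% of all protein-coding genes. At a gene end 5 of the 24 had one, against 1.93%. These were Hspa8, the constitutive HSC70, at 15.4-fold, Hsph1, a nucleotide exchange factor, at 15.3-fold, and St13, which encodes the HSP70-interacting protein HIP, at 14.8-fold. The others were Sil1, an exchange factor of the endoplasmic reticulum, at 2.96-fold, and Hspa9, the mitochondrial HSP70, at 2.62-fold. The Dnaja1 value of 6.63 thus lay between these 2 levels, and the Dnajb1 and Dnajb4 values were near the lower. In the control list 4 of the 24 had a peak (16.7%, 4.74 to 37.4%), against 10.3% of all protein-coding genes. These shares were not tested against each other, and for chosen genes the intervals are no test against the share of all genes. Hsph1 (3.39-fold, −log10 q 4.39) and Stub1 (2.36-fold, −log10 q 0.948) had a control peak at a gene end, against 2.55% of all protein-coding genes. Stub1 encodes the ubiquitin ligase CHIP. The authors' q of its peak was not below 0.05, and nor was that of the Sil1 control peak (−log10 q 1.15). The summit of the Stub1 peak had 5 protein-coding genes within 10000 bp, so it cannot be assigned to Stub1 rather than another. The summit of the St13 peak, 124 bp from an end of St13, had 3 such genes and is likewise not assigned to 1 of them. Hsph1 was also the 1 partner gene, of 17 with a promoter entry, that held a 3-unit element, against 0.668% of all genes.

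**Figure D4:**
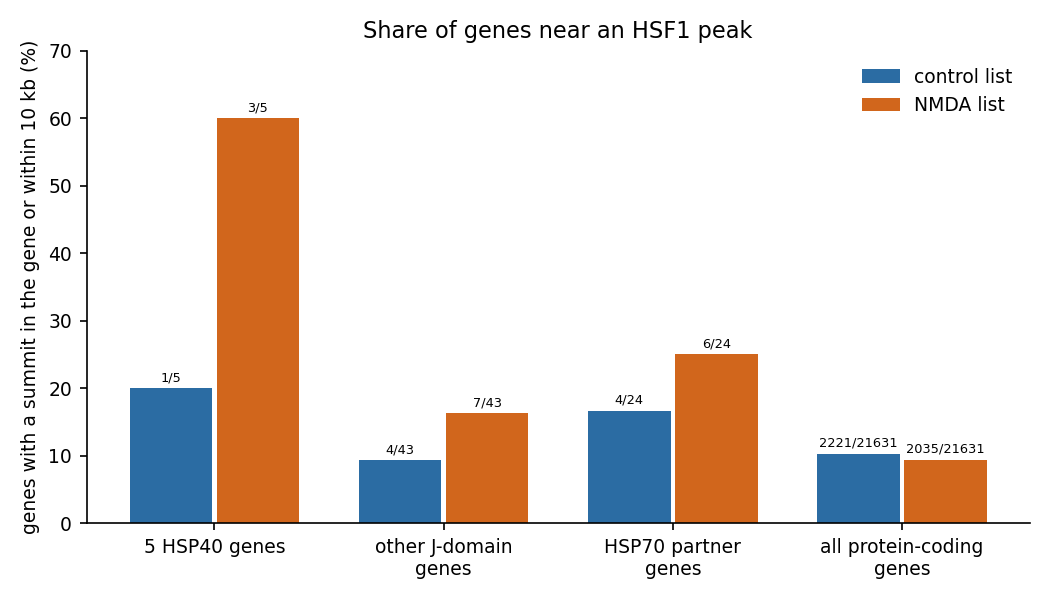
Share of genes with a summit in the gene or within 10 kb (y axis, %) for the 5 HSP40 genes, the other J-domain genes, the HSP70 partner genes and all protein-coding genes, with blue bars for the control list and orange bars for the NMDA list and the counts above them. The NMDA share is 60% for the HSP40 genes, from 3 of 5 genes, and 9.41% for all protein-coding genes.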

How the data were processed

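Per the submitters' processing notes, reads were handled with FastQC, Trimmomatic, BWA, SAMtools and MACS2 (versions not given in the sources used here) on mm10 (GRCm38.p6). The authors deposited 1 peak list per condition. Both lists carry the word replicated in their names, but the sources do not say how the 2 libraries of a group became 1 list. There is thus no replicate error, and nothing was tested between groups. The deposited lists give for each peak a score, a fold enrichment (a ratio of ChIP signal to background at the summit), the −log10 q of the peak caller and the summit, which were used here. The scale of a list depends on its libraries. Library depth is unknown.

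Gene positions, annotated starts and promoter sequences came from RefSeq tables of GRCm38.p6, covering 21631 protein-coding genes of the autosomes and X. The tables give no exons, so no peak is called exonic, intronic or untranslated. Summits were assigned to genes, and promoter windows (250 bases before and 50 from a start) were searched for heat shock elements on both strands, with Python 3.11.15 and pandas 2.3.3. The scripts were tested on simulated data. The 5 genes, the other lists and the named items (partner genes with a gene-end peak and protein-coding neighbours of a peak) were chosen with earlier results of these data known, and Gm6297 was named after its position was seen. A gene of the planned J-domain list is not reported here. Alternatives were other windows, filters, choices of peak, overlap rules and elements.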

Additional observations from a re-analysis of the deposited data

How the results depend on the processing

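Of 26 alternative values 21 kept to the reported value within 1.5 times. Some of them took the fold of the peak nearest to a gene end in place of a gene's strongest peak. For Dnajb1 in either list and for Dnajb4 this is the same single peak, so these values could not move. The counts of 1 control gene and 3 NMDA genes were found with windows of 1000, 5000 and 20000 bp, by whole peaks, with q below 0.05, by the nearest gene and by annotated starts. When peaks below their list's median −log10 q were dropped, 2 genes remained in the NMDA list, without Dnajb1. This fall from 3 genes is counted as within 1.5 times. With a fold of at least 4, which like the setting of annotated starts was chosen after seeing the data, the counts were 0 (control) and 1 (NMDA, Dnaja1). The shared site at Dnajb1 was lost (0 sites) under both stricter overlap rules, because the 81 bp and the 213 bp between summits miss them. With 3 exact units the element was in 1 gene. Replicates could not be left out in turn, since each value of a list already combines them. No paired analysis was possible because replicates have no values of their own. Depth is not known, so how far it limits the detection of weak sites at Dnajb2 and Dnajb6 was not tested.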

Other observations

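Some J-domain genes beyond the 5 are described here by the position of their sites, and they were picked after their values were seen. Dnajb5, a class B gene close to Dnajb1 and Dnajb4, and Dnajc25 were the 2 of 43 with a peak in both lists. Among all protein-coding genes 2.72% had a peak in each list. At Dnajb5 the summits lay 3646 bp from the nearer end in the control list (2.88-fold) and 6569 bp in the NMDA list (3.12-fold), at peaks that do not overlap. At Dnajc25 they lay 9988 bp outside the gene (2.57-fold) and inside it, 3779 bp from an end (2.90-fold). The strongest site near any of the 43, at 14.8-fold 7270 bp from Dnajb7 in the NMDA list, is the peak also counted for St13. Sec63, a J-domain gene of the endoplasmic reticulum, held 2 NMDA peaks, at 2.65-fold and 2.47-fold, both more than 20000 bp inside the gene. The authors' q of the weaker one (−log10 q 1.15) was not below 0.05.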
